A study of Homo sapiens with 414 samples.

Results

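Human neural progenitor cultures were followed from day 4 to day 10 under compounds that the submitters class as non-toxic. The libraries are those labelled non-toxic on day 10 and on day 4, with days 6 and 8 for the course, less 1 library of day 8 that was left out for its values. They number 55 of the 414 libraries of the series, with 16 on day 4, 15 on day 6, 9 on day 8 and 15 on day 10. The cells are H1-NPC, neural progenitors derived from H1, an established human embryonic stem cell line. They were expanded with FGF2 and then seeded in multiwell plates in a medium for which the design text lists no FGF2, and the compound was added on the day of seeding, which is day 0. RNA was extracted from wells lysed on the plate and sequenced as TruSeq RNA libraries.

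When progenitors of the nervous system stop dividing, they leave the cell cycle, lower NOTCH signalling and switch from genes of division to genes of synapses, transmitters and ion channels. PCP4, a small calmodulin-binding protein first named from Purkinje cells, GAD2, an enzyme that makes the inhibitory transmitter GABA, and SYN1, a phosphoprotein of synaptic vesicles, mark the neurons that such cultures form. The comparison asks which genes moved between day 4 and day 10.

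Every library of both days came from a well with a compound, so none is an untreated well. The compounds shared by day 10 and day 4 were acetaminophen at 10 µg/ml, amoxicillin at 5 µg/ml, ibuprofen at 20 µg/ml, naproxen sodium at 30 µg/ml, glucosamine at 0.4 µg/ml, PVP at 100 µg/ml and DMSO, a common vehicle, at 0.1%. Glyphosate, saccharin, sorbitol, sucrose, fructose, glycerol, PEG 3350 and Ficoll 400 were each at 10 µM on both days. Aspirin at 20 µg/ml had a library on day 4 and none on day 10, so 15 compounds could be followed across the interval. One library, ibuprofen on day 8, was left out because its values fell with transcript length: its slope was -0.805 log2 units per doubling of length, against -0.118 to 0.0721 in the 55 libraries kept. The labels do not say whether wells of a day were separate expansions of the cells, so the errors and p-values below measure the spread between wells with different compounds, which may be technical. Levels are in TPM, transcripts scaled to one fixed total per library, a unit that does not keep the depth, so the depth behind each value is unknown. Between 13291 and 13682 of the 19084 genes reached 1 TPM in a library.

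Of the genes that averaged 5 TPM or more on either day PCP4 rose the most, and GAD2 and SYN1 rose with it. PCP4 had 631 TPM in the lowest, 685 TPM in the median and 758 TPM in the highest library of day 10, against 1.65, 4.75 and 8.26 TPM in the same places on day 4. GAD2 had 86.8, 99.7 and 111 TPM on day 10, against 16, 19.2 and 23.7 TPM on day 4, in the same order of lowest, median and highest library. SYN1 had 70.2, 79 and 89.1 TPM on day 10, against 20.7, 25 and 26.8 TPM on day 4. For each of the 3 genes every day 10 library lay above every day 4 library, and the gene was higher on day 10 under all 15 compounds followed. Fitted with limma on log2(TPM + 1) with the compound as a block, the day 10 minus day 4 difference (± SE) was 6.84 ± 0.092 log2 units (adjusted p = 4.7e-44) for PCP4, 2.28 ± 0.036 (adjusted p = 2.03e-41) for GAD2 and 1.65 ± 0.044 (adjusted p = 7.64e-33) for SYN1. PCP4 also led a ranking by this difference in the same libraries, so its separation and p-value only describe the values. In bulk RNA a larger share of cells of a type and more RNA per cell of that type cannot be told apart, and this holds for every gene below.

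**Figure D1:**
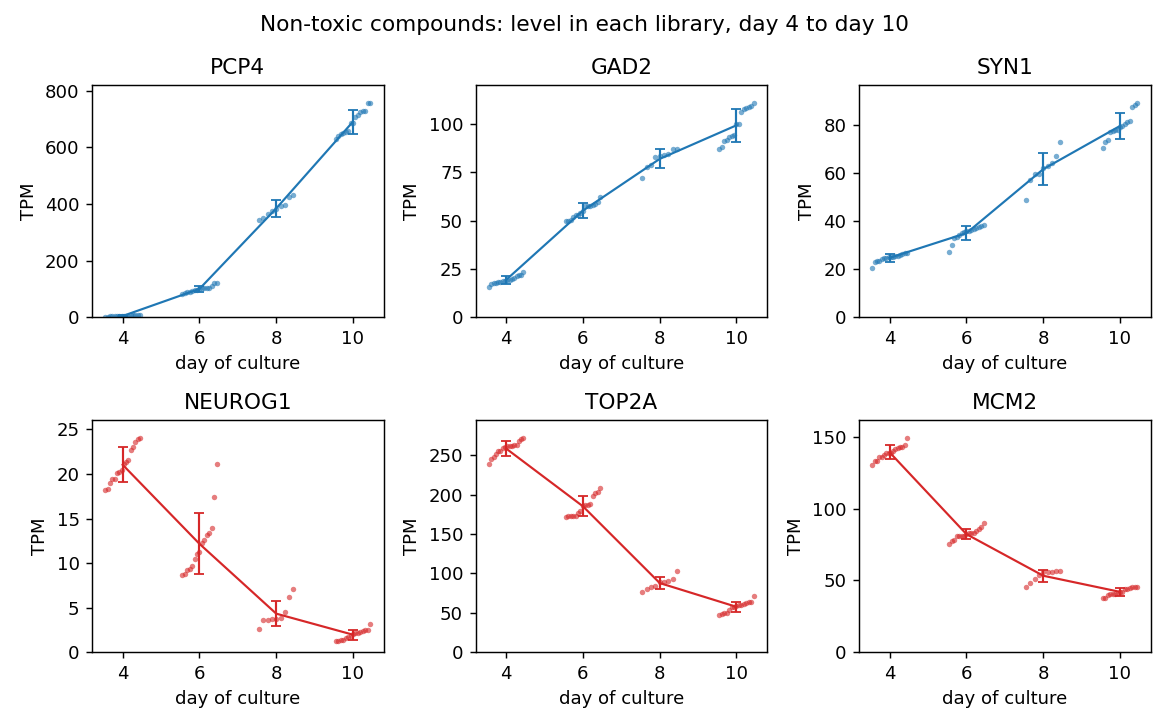
Level in TPM (vertical axes, from 0) of PCP4, GAD2, SYN1, NEUROG1, TOP2A and MCM2 in each of the 55 libraries by day of culture (horizontal axes), with dots sorted by level within a day and lines and bars for the mean ± SD. PCP4, GAD2 and SYN1 are higher on each later day by their means, and NEUROG1, TOP2A and MCM2 lower.

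Most genes moved, and most of them by less than 1 log2 unit. Of 14391 genes that reached 1 TPM in 5 or more libraries, 5281 were higher (36.7%) and 5972 lower (41.5%) on day 10 at a Benjamini-Hochberg adjusted p under 0.05 over all genes tested (limma), 78.2% in all. By at least 1 log2 unit, 797 were higher (5.54%) and 674 lower (4.68%). Every day 10 library lay above every day 4 library for 2299 genes (16%) and below for 2773 genes (19.3%). These shares are the background for the counts below, and the median difference over all genes tested was -0.03 log2 units. A small trend with transcript length was also measured: the day 10 minus day 4 difference changed by -0.0744 log2 units per doubling of length over 9217 genes. With each library corrected for its own trend, an alternative chosen after seeing the data, 738 genes were higher and 611 lower by at least 1 log2 unit.

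Several of the largest rises were in genes at or near 0 TPM on day 4. FGF3, a secreted fibroblast growth factor, had 22.4, 28.1 and 33.9 TPM on day 10, against 0, 0 and 0.23 TPM on day 4. FGF19, another secreted member of that family, had 13.4, 18.2 and 21.1 TPM on day 10, against 0, 0.25 and 0.77 TPM on day 4. NXPH3, a neurexophilin that binds neurexins, had 28.3, 32.2 and 37.6 TPM on day 10, against 0, 0.195 and 0.36 TPM on day 4. On the log2(TPM + 1) scale, which understates the change of genes this low, FGF3 rose by 4.84 ± 0.099, NXPH3 by 4.86 ± 0.056 and FGF19 by 3.91 ± 0.09 log2 units, with limma adjusted p of 2.99e-37, 9.83e-47 and 2.64e-35. No day 10 library of these genes reached down to a day 4 library. They were ranked by this difference in the same libraries and passed the 5 TPM limit only through day 10. The separation of the days and the p-values therefore only describe the values.

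CA8, a carbonic anhydrase-related protein of Purkinje cells that binds the IP3 receptor, had 139, 173 and 207 TPM on day 10, against 6.48, 7.24 and 10.2 TPM on day 4 and rose by 4.35 ± 0.046 log2 units. PCP4L1, a relative of PCP4, rose by 4.08 ± 0.089 log2 units, with medians of 56.9 and 2.32 TPM on day 10 and day 4. LRRC3B, a leucine-rich repeat protein, rose by 4.56 ± 0.055, with medians of 164 and 5.81 TPM. C11orf87 rose by 4.60 ± 0.066, SLA, an adaptor related to the kinase SRC, by 4.18 ± 0.072, and HS6ST3, which adds sulfate to heparan sulfate chains, by 3.61 ± 0.053 log2 units. CALY, a vesicle protein that binds clathrin light chain, rose by 3.62 ± 0.088, with medians of 72.8 and 5.27 TPM on day 10 and day 4. For all of these the groups did not overlap, and the limma adjusted p was 3.29e-36 or smaller except for CALY (3.11e-34). These genes too were ranked by this difference in the same libraries, which favours separated days and small p-values.

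The listed genes of the synaptic vesicle and of release rose, with 1 exception. Of 21 members tested, 20 rose and 1 fell, against the 36.7% that rose among all genes, and their median difference was 1.23 log2 units. SYNGR3, a vesicle membrane protein, had 42.8, 52.4 and 62.7 TPM on day 10, against 3.52, 5.97 and 7.69 TPM on day 4, a rise of 2.95 ± 0.067 log2 units. SYN2 and SYN3, the relatives of SYN1, rose by 2.27 ± 0.056 and 2.34 ± 0.12. SYT5, a calcium sensor of the synaptotagmin family, rose by 1.82 ± 0.048, with medians of 187 and 51.3 TPM on day 10 and day 4. RIMS2, a scaffold of the active zone, was the member that fell, by 0.33 ± 0.067 log2 units (adjusted p = 2.35e-05, limma), and its groups overlapped.

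On the receiving side, 15 of 16 scaffolds and adhesion proteins rose and 0 fell, with a median difference of 1.18. CNTNAP4, a contactin-associated protein, had 75.9, 103 and 114 TPM on day 10, against 4.52, 5.21 and 6.61 TPM on day 4, and rose by 3.90 ± 0.055 log2 units. DLG2, a scaffold under glutamate receptors, rose by 2.10 ± 0.058. LRRTM2, a postsynaptic partner of neurexins, rose by 1.45 ± 0.066, with medians of 17.3 and 5.27 TPM on day 10 and day 4. In each of these 3 genes all day 10 libraries lay above all day 4 libraries. They were picked by the size of this difference in the same libraries, which favours such a separation.

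Most of the listed GABA genes rose. Of 13 tested, 12 rose and 1 fell, with a median difference of 1.79 log2 units. SLC32A1, which loads GABA and glycine into vesicles, had 56.5, 69.3 and 81.7 TPM on day 10, against 5.49, 8.03 and 11.8 TPM on day 4, and rose by 2.97 ± 0.055 log2 units (adjusted p = 5.91e-39, limma). GABBR2, a subunit of the metabotropic GABA receptor, rose by 2.25 ± 0.046. ABAT, the enzyme that breaks GABA down, fell by 0.38 log2 units, with 153, 189 and 215 TPM on day 10, against 228, 242 and 253 TPM on day 4, and its groups did not overlap either.

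The transporters that set the chloride gradient, and with it the response to GABA, moved in opposite directions. SLC12A5, also called KCC2, which carries chloride out of neurons, had 14.1, 17.8 and 21 TPM on day 10, against 2.04, 2.9 and 3.81 TPM on day 4. SLC12A2, also called NKCC1, which carries chloride in, had 4.8, 7.48 and 10.3 TPM on day 10, against 14.1, 15.8 and 18.2 TPM on day 4. The difference was 2.29 ± 0.063 log2 units for SLC12A5 (adjusted p = 3.65e-32) and -1.0 ± 0.063 for SLC12A2 (adjusted p = 1.17e-18, limma). By its means SLC12A2 was the higher of the pair on days 4 and 6 and SLC12A5 on days 8 and 10, both in TPM.

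Most of the listed glutamate genes rose, while GRIN2A and 2 vesicular transporters fell. Of 16 tested, 12 rose and 3 fell, with a median difference of 0.45. GRIN1, the subunit that all NMDA receptors contain, had 33.2, 46.8 and 52.1 TPM on day 10, against 2.65, 3.27 and 3.93 TPM on day 4, and rose by 3.43 ± 0.065 log2 units. GRIN2A, a subunit of mature NMDA receptors, had 1.76, 2.51 and 3.24 TPM on day 10, against 7.56, 9.21 and 11.2 TPM on day 4, and fell by 1.62. Of the vesicular glutamate transporters, SLC17A8 fell by 1.62 log2 units, with medians of 6.84 and 23.6 TPM on day 10 and day 4, and SLC17A6 by 0.58, with medians of 21.5 and 31.4 TPM. GRM7, a presynaptic metabotropic receptor that was not on the list, rose by 3.83 ± 0.065, and GRIK2, a kainate receptor subunit, by 1.37 ± 0.053. Among the genes of other transmitters 6 of 7 rose. CHAT, which makes acetylcholine, had medians of 2.11 and 0.57 TPM on day 10 and day 4, and SLC6A5, a glycine transporter, of 0.84 and 0.11 TPM. DDC, an enzyme of dopamine and serotonin synthesis, fell by 0.70 log2 units, and in these 3 genes the libraries of the days overlapped.

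Neuropeptides split by gene, with 9 of 13 higher and 2 lower and a median difference of 1.24. SST, the precursor of somatostatin, had 20.7, 28.4 and 39.3 TPM on day 10, against 0, 0 and 1.37 TPM on day 4, and rose by 4.60 ± 0.16 log2 units (adjusted p = 4.89e-28, limma). VGF, a secreted neuropeptide precursor, had 137, 161 and 199 TPM on day 10, against 9.07, 11.4 and 14.7 TPM on day 4, and rose by 3.70 ± 0.066. The granins SCG2 and CHGA rose by 2.41 ± 0.044 and 1.49 ± 0.042. TAC1 and TAC3, precursors of tachykinins, fell by 0.63 and 0.63 log2 units, and TAC1 had 122, 135 and 153 TPM on day 10, against 173, 212 and 232 TPM on day 4. None of these 6 genes overlapped between the days, and in the whole list 7 of 13 genes lay above and 2 below without overlap. SST and VGF were among the 15 largest rises in the same libraries, and SST passed the 5 TPM limit only through day 10. The others were picked from the list by size or for going the other way. The separation of these genes and the p-value of SST therefore only describe the values.

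Most of the listed sodium and calcium channel genes rose, and potassium channel genes went both ways. Of 8 sodium channel genes 7 rose: SCN2A by 1.81 ± 0.069 and SCN3B by 1.55 ± 0.038 log2 units. SCN8A had 11.9, 18.7 and 24.4 TPM on day 10, against 36.9, 39.7 and 41.8 TPM on day 4, and fell by 1.04. Of 9 calcium channel genes 7 rose and 1 fell, among them CACNA1E, an R-type channel, by 1.92 ± 0.06. Potassium channel genes had 5 rises and 3 falls among 9: KCNQ3, a subunit of the M-current channel, rose by 1.42 ± 0.057, and KCNA2, an axonal channel, fell by 1.04 log2 units.

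Genes of the neuronal cytoskeleton, growth cone and RNA-binding proteins gave 12 rises and 4 falls among 16, with a median difference of 0.72. MAPT, the microtubule protein tau, had 319, 349 and 373 TPM on day 10, against 72.8, 82.7 and 86.2 TPM on day 4, and rose by 2.08 ± 0.022 log2 units (adjusted p = 1.02e-47, limma). L1CAM and NCAM1, adhesion molecules of axons, rose by 1.41 ± 0.028 and 1.01 ± 0.025, and INA, an intermediate filament of neurons, by 1.10 ± 0.028. Its relatives NEFL and NEFM, the light and medium neurofilaments, fell by 0.72 and 0.42 log2 units, and NEFL had 50.5, 56.5 and 64.1 TPM on day 10, against 81.8, 96.5 and 101 TPM on day 4. RBFOX3, also called NeuN, was at 4.29 and 6.01 TPM at the median on day 10 and day 4, lower by 0.35 log2 units with overlapping groups, and ELAVL4 was lower by 0.14, a call that was lost when each library was centred on its median (adjusted p = 0.0568, limma) or when ibuprofen on day 8 was kept (adjusted p = 0.656).

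**Figure D2:**
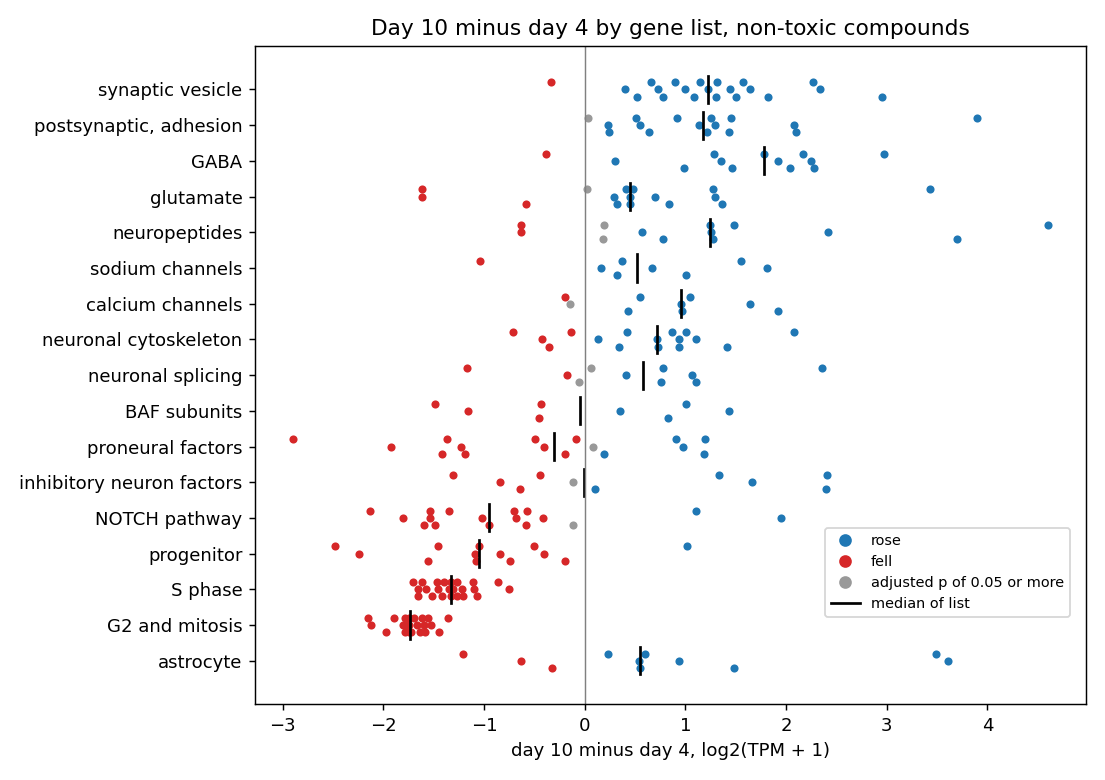
Day 10 minus day 4 difference in log2(TPM + 1) (horizontal axis) of each tested gene in 17 gene lists (rows), 1 dot a gene (blue rose, red fell, grey did not pass the test), with a black bar for the median of the list. All dots of the S phase and of the G2 and mitosis lists lie below 0, and 20 of 21 synaptic vesicle genes lie above it.

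All tested members of the 2 lists of S phase and of G2 and mitosis genes fell. In S phase 23 of 23 genes were lower on day 10, against the 41.5% of all genes, with a median difference of -1.33 log2 units and single genes between -1.70 and -0.75. In G2 and mitosis 22 of 22 were lower, with a median of -1.73 and a range of -2.15 to -1.36. MCM2, a subunit of the replicative helicase, had 37.9, 41.9 and 45.3 TPM on day 10, against 131, 139 and 149.6 TPM on day 4. UHRF1, which recruits the maintenance DNA methyltransferase to replicated DNA, had 38, 42 and 47 TPM on day 10, against 122, 135 and 148 TPM on day 4, and ORC1, of the origin recognition complex, fell by 1.66 log2 units. TOP2A, the topoisomerase that untangles chromosomes before they part, had 47.7, 58.8 and 70.9 TPM on day 10, against 239, 261 and 272 TPM on day 4. CENPF, a kinetochore protein, fell by 2.13, MKI67, the Ki-67 antigen, by 1.97 and KIF11, a spindle motor, by 1.89 log2 units. In these 7 genes the highest day 10 library lay below the lowest day 4 library, and limma adjusted p was 1.15e-27 or smaller. They were picked from their lists by the size of this difference, which favours separated days and small p-values. ASPM, a spindle pole protein among the largest falls, had 4.8, 7.02 and 9.87 TPM on day 10, against 30.9, 33.1 and 35.6 TPM on day 4.

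The promoters of these genes hold sequence elements known from the cell cycle, and some are printed to show them. The CHR, a short element bound by the DREAM and MuvB complexes at genes of G2 and mitosis, was searched as TTTGAA, the E2F site of S phase genes as TTTNNCGC and the NF-Y site as CCAAT, each on both strands, where E2F matches may overlap one another. The window was RefSeq's promoter of each gene (GRCh38.p14), 250 bases before and 50 bases after the start, found by symbol for 10520 of the 14391 genes tested. TTTGAA was in 12 of 18 promoters of the G2 and mitosis list, 1 of 20 of the S phase list and 9.96% of all. TTTNNCGC was in 14 of the 20 S phase promoters, 3 of the 18 of G2 and mitosis and 10% of all. CCAAT was in 16 of 18 and 15 of 20 in the same lists, and in 36.3% of all. Of the 497 promoters of genes lower by at least 1 log2 unit, 22.9% held TTTGAA, and of the 551 of genes higher by as much, 8.53%. Among 14 synaptic vesicle promoters 0 held TTTGAA and 2 held CCAAT. In the same order the counts were 1 and 4 of 11 scaffold and adhesion promoters, 1 and 3 of 8 GABA promoters and 1 and 7 of 13 NOTCH promoters. These lists are too short for anything to be read from such counts. A match is a run of letters and not a measured site.

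The 160 bases before the start are given on the strand of the gene for CCNB2, a mitotic cyclin, PLK1, a mitotic kinase, and CDC20, which activates the anaphase-promoting complex, with matches to the 3 motifs in capitals. The build is GRCh38.p14, while the authors counted on hg19. In CCNB2 (chr15:59104986-59105145, plus strand), PLK1 (chr16:23678729-23678888, plus strand) and CDC20 (chr1:43358821-43358980, plus strand) TTTGAA stands downstream of a CCAAT.
CCNB2: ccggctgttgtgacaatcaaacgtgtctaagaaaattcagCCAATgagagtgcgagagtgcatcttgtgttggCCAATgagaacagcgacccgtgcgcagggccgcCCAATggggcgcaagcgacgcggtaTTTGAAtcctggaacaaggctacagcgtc
PLK1: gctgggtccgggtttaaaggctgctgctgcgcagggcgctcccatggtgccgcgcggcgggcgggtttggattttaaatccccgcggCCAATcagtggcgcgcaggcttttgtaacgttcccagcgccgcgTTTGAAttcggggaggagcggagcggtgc
CDC20: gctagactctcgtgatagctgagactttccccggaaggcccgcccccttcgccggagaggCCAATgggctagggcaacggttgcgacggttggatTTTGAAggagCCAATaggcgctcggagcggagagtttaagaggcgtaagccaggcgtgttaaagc
In S phase, MCM6 (chr2:135876444-135876603, minus strand), a helicase subunit, PCNA (chr20:5126623-5126782, minus strand), the sliding clamp of replication, and E2F1 (chr20:33686386-33686545, minus strand), itself an E2F factor, hold TTTNNCGC or its reverse complement. In MCM6 2 such matches on opposite strands overlap at each of 2 places, and the reverse complement of CCAAT is also in capitals.
MCM6: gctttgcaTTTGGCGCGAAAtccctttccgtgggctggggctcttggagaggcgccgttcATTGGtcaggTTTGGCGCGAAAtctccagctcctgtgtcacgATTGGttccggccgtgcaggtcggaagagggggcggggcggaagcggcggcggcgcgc
PCNA: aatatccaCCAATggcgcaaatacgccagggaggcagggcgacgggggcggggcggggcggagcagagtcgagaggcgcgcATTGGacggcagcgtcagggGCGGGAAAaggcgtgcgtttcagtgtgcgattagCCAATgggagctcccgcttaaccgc
E2F1: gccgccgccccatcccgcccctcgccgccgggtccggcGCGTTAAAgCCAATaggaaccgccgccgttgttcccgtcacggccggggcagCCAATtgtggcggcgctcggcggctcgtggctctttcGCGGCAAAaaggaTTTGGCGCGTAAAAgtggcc
These 6 genes were all lower on day 10. CCNB2 had 28.8, 34.7 and 40.8 TPM on day 10, against 103, 116 and 118 TPM on day 4, and PLK1 25.8, 34.2 and 39 TPM on day 10, against 99.3, 105 and 115 TPM on day 4. MCM6 had 22.2, 26.1 and 30.4 TPM on day 10, against 69.5, 77.2 and 81.7 TPM on day 4, and PCNA 108, 121 and 146 TPM on day 10, against 294, 325 and 349 TPM on day 4. The differences were -1.70 ± 0.034 for CCNB2, -1.59 ± 0.037 for PLK1, -1.78 ± 0.037 for CDC20, -1.52 ± 0.038 for MCM6, -1.39 ± 0.03 for PCNA and -1.11 ± 0.039 log2 units for E2F1, with the smallest fall in E2F1.

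Most of the listed regulators of cell cycle exit, which act for or against division, fell. Of 16 CDK inhibitors, D cyclins, pocket proteins and related genes 2 rose and 12 fell. CDKN2D, the inhibitor p19 of CDK4 and CDK6, had 177, 208 and 224 TPM on day 10, against 76.3, 84.7 and 94.2 TPM on day 4, and rose by 1.26 ± 0.03 log2 units. CCND3, a D cyclin, rose by 0.28 ± 0.035. GADD45G, a growth arrest gene, fell by 1.24, RBL1, the pocket protein p107, by 1.22 and RB1 by 0.91 log2 units.

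The listed genes of the progenitor state fell, with 1 exception. Of 13 tested 12 fell and 1 rose, with a median difference of -1.05. HMGA2, a chromatin protein of fetal progenitors, had 2.05, 2.75 and 3.94 TPM on day 10, against 16.1, 19.4 and 23.3 TPM on day 4, and PROM1, the surface protein CD133, had 5.11, 6.4 and 7.73 TPM on day 10, against 31.3, 34.6 and 37.3 TPM on day 4. GLI3, a transcription factor of the Hedgehog pathway, fell by 1.55 and SOX1, a factor of neural progenitors, by 1.46 log2 units. FABP7, a fatty acid binding protein of radial glia, went the other way: 429, 483 and 522 TPM on day 10, against 215, 233 and 287 TPM on day 4, a rise of 1.02 ± 0.032 log2 units. Among the DNA methylation enzymes and fetal RNA-binding proteins 9 of 10 fell, led by IGF2BP1, which binds and stabilises mRNAs in fetal tissue, at 35.8 and 96.3 TPM on day 10 and day 4, and by TET1, which oxidises methylcytosine, at 7.21 and 15.3 TPM.

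Most of the listed NOTCH genes fell with them, 14 of 17 genes, with 2 rises and a median difference of -0.95. The ligand DLL1 had 77.7, 90.8 and 95.8 TPM on day 10, against 296, 319.5 and 341 TPM on day 4, and fell by 1.8 log2 units. MFNG, which adds sugars to NOTCH receptors, fell by 2.13, HEYL, a target gene, by 1.59, and the receptors NOTCH1 and NOTCH3 by 1.53 and 1.48. The ligand JAG2 had 14.8, 18.1 and 21.9 TPM on day 10, against 3.19, 4.05 and 5.15 TPM on day 4, and the target gene HES1 had 14, 18.3 and 23.4 TPM on day 10, against 5.48, 8.11 and 11.9 TPM on day 4. Both rose, by 1.95 ± 0.064 and 1.10 ± 0.079 log2 units, with no overlap between days, while HES5, the other main target in neural progenitors, fell by 1.35.

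Proneural factors fell in 10 of 16 genes and rose in 5. NEUROG1, a factor that starts neuronal differentiation, had 1.27, 2.04 and 3.16 TPM on day 10, against 18.2, 20.8 and 24.1 TPM on day 4, the largest fall among genes that averaged 5 TPM or more on either day, at -2.90 ± 0.084 log2 units (adjusted p = 1.89e-31, limma). NEUROG1 was ranked by this fall in the same libraries and passed the 5 TPM limit only through day 4. Its p-value therefore only describes the values. NEUROG2 and NEUROD4, factors of the same early step, fell by 1.37 and 1.93. Of those that rose, EBF3 did so by 1.19 ± 0.024, MYT1L by 1.19 ± 0.047, NEUROD6 by 0.98 ± 0.074 and NEUROD2 by 0.91 ± 0.057 log2 units.

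Other genes among the 15 largest falls have varied roles. PCDH18 and PCDH8, protocadherins, fell by 2.63 and 2.38 log2 units, and PCDH8 had 34.3, 37 and 46.2 TPM on day 10, against 180.4, 204 and 220.4 TPM on day 4. COL2A1, type II collagen, had 1.08, 2 and 3.23 TPM on day 10, against 16.1, 16.9 and 20.5 TPM on day 4. GAS1, a surface protein that helps Hedgehog bind its receptor, had 41.5, 50.4 and 63.1 TPM on day 10, against 201, 231 and 252.1 TPM on day 4. CASZ1, a zinc finger factor, fell by 2.14, PREX2, an activator of the GTPase RAC, by 2.22, and FAM19A4, a secreted protein, by 2.29. RPRML, MST4, a kinase, and NUP62CL each fell by 2.24 log2 units, and the day 10 and day 4 libraries of all these genes did not overlap. Their choice as the largest falls in the same libraries favours such a separation.

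Factors that specify inhibitory neurons went both ways, 5 up and 4 down of 10. PAX2, a factor of dorsal inhibitory neurons of hindbrain and spinal cord, had 5.98, 11.2 and 13.1 TPM on day 10, against 0.47, 1.03 and 1.77 TPM on day 4. GSX1 had 13.1, 20.9 and 26.4 TPM on day 10, against 1.32, 2.59 and 6.52 TPM on day 4, and LBX1, another factor of dorsal neurons, had 1.9, 3.07 and 6.34 TPM on day 10, against 0, 0.27 and 0.75 TPM on day 4. LHX1, a LIM factor that is also high in Purkinje cells, rose by 1.33 ± 0.035, with medians of 478 and 181 TPM on day 10 and day 4. TFAP2B fell by 1.30 and PTF1A, which is required for GABA neurons of cerebellum and dorsal spinal cord in the mouse, by 0.84 log2 units. Of 14 tested factors of forebrain, midbrain and other regions 12 fell and 0 rose. The dorsal factors PAX3 and PAX7 led them, PAX3 with 62.4, 71.8 and 79.5 TPM on day 10, against 223, 231 and 241 TPM on day 4.

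Splicing regulators and subunits of the BAF chromatin remodeller moved in opposite directions within each group. In the mouse, PTBP1 falls and RBFOX and CELF proteins rise as neurons form, and BAF53A (ACTL6A), PHF10 and SS18 give way to BAF53B (ACTL6B), DPF1 and SS18L1. RBFOX1 had 39, 46.6 and 52.6 TPM on day 10, against 6.78, 8.12 and 9.5 TPM on day 4, and PTBP1 had 102, 114 and 125 TPM on day 10, against 244, 257 and 271 TPM on day 4. CELF4 and CELF5 rose by 1.11 ± 0.037 and 1.07 ± 0.032 log2 units. PTBP2, which replaces PTBP1 in young neurons, had medians of 67.8 and 75.5 TPM on day 10 and day 4, lower by 0.18 log2 units with overlapping groups. With each library corrected for its length trend that call was lost (adjusted p = 0.108, limma).

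ACTL6B had 199.6, 221 and 231 TPM on day 10, against 74.2, 79.5 and 87.3 TPM on day 4, and ACTL6A had 39.9, 51.5 and 59.6 TPM on day 10, against 104, 116 and 122 TPM on day 4. DPF1 rose by 1.01 ± 0.029 and PHF10 fell by 1.49 log2 units. Over both lists 6 of 10 splicing genes rose and 2 fell, and 4 of 8 BAF genes rose and 4 fell. RBFOX1, PTBP1, CELF4, CELF5, ACTL6B, ACTL6A, DPF1 and PHF10 did not overlap between day 10 and day 4.

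**Figure D3:**
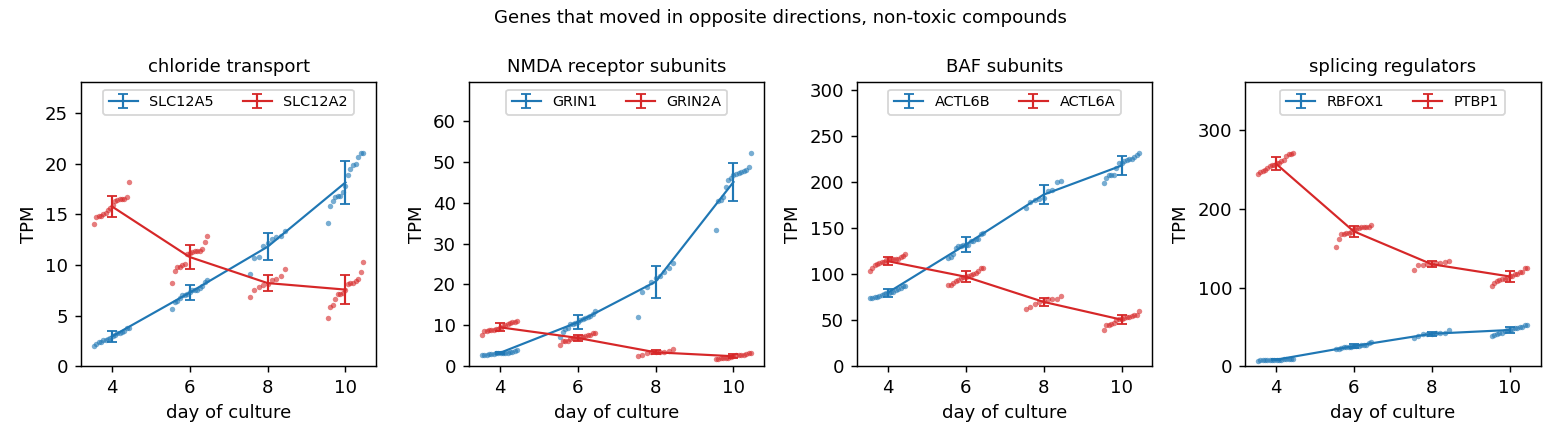
Level in TPM (vertical axes, from 0) by day of culture (horizontal axes) of 4 pairs of genes in the 55 libraries, with dots sorted by level within a day and lines and bars for the mean ± SD. By means SLC12A5, GRIN1 and ACTL6B are above SLC12A2, GRIN2A and ACTL6A on day 10 and below them on day 4, while PTBP1 is above RBFOX1 on all 4 days.

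The course between was uneven. From day 4 to day 6, 3619 genes rose (25.1%) and 4167 fell (29%), 54.1% in all, with 75 rises (0.521%) and 8 falls (0.0556%) of at least 1 log2 unit. From day 6 to day 8, 3179 genes rose (22.1%) and 4993 fell (34.7%), 56.8% in all, with 50 rises (0.347%) and 48 falls (0.334%) of at least 1 log2 unit. From day 8 to day 10, 2826 genes rose (19.6%) and 1633 fell (11.3%), 31% in all, with 26 rises (0.181%) and 2 falls (0.0139%) of at least 1 log2 unit. Day 8 had 9 libraries and the other days 15 or 16. The balance of rises and falls in a step depended on scaling. With each library centred on its median, 4140 genes rose and 4054 fell from day 6 to day 8. From day 8 to day 10 that scaling gave 2194 rises and 2314 falls. TMM factors gave 4174 rises and 4017 falls, then 2172 rises and 2380 falls, for the same steps. Nothing is therefore read from which direction was the more frequent in a step. S phase genes had median steps of -0.57, -0.55 and -0.23 log2 units, and G2 and mitosis genes of -0.53, -0.74 and -0.43.

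Genes that had changed by at least 2 log2 units by day 10 differed in how much of it they had reached on day 6. DIRAS3, a RAS-related GTPase, was early, at 5.75, 26.6, 41.8 and 45 TPM on days 4, 6, 8 and 10 by the median library, with 74.5% of its log2 difference reached on day 6. RBFOX1 had reached 65%, GAD2 64.1%, FOXP2, a transcription factor of Purkinje cells and other neurons, 60.3% and PCP4 59.9%. FOS, an immediate early gene induced by activity and growth signals, was late, at 1.31, 1.6, 4.54 and 14.6 TPM on days 4, 6, 8 and 10. WNT7B, a secreted WNT ligand, was at 14.9, 15.6, 35.4 and 75.6 TPM on days 4, 6, 8 and 10. They had reached 1.69% and 2.41% on day 6, GSX1 5.3%, SST 5.94% and FGF3 11.9%, by the same measure.

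Few genes turned inside the window: 15 were highest (0.104%) and 17 lowest (0.118%) on day 6 or 8 by at least 0.5 log2 units against both ends. DAPL1, a death-associated protein-like gene, had 10.7, 26, 17.5 and 9.11 TPM on days 4, 6, 8 and 10 by the median library. MSX1, a homeobox factor of the dorsal neural tube, had 3.17, 7.55, 5.87 and 2.67 TPM on days 4, 6, 8 and 10. TH, tyrosine hydroxylase, dipped, with 7.46, 4.37, 4.39 and 10.8 TPM on days 4, 6, 8 and 10. IFITM1, an interferon-induced membrane protein, had 4.47, 2.08, 4.65 and 8.84 TPM on days 4, 6, 8 and 10. TFPI2 and PNMA6D were also lowest in the middle, and NEDD8-MDP1, PNMA6A and C14orf178 highest, all at low levels. NEDD8-MDP1 is a read-through of a pair of genes and the PNMA6 genes are near-identical copies, so the split of reads between them and their relatives is uncertain.

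Markers of other cell types moved as well. Of the astrocyte list 8 of 11 genes rose and 3 fell, and the summed level of the list was 406 to 508 TPM on day 10 and 288 to 317 TPM on day 4. SPARCL1 had 24.6, 32.4 and 38.7 TPM on day 10, against 0.85, 1.71 and 2.7 TPM on day 4, GFAP, the filament of astrocytes, had 29.1, 41.2 and 65 TPM on day 10, against 1.42, 3.02 and 3.95 TPM on day 4, and S100B rose by 1.48 ± 0.067 log2 units, while GJA1, the gap junction protein connexin 43, fell by 1.21. CD44 and SLC1A2, also on the list, were the others that fell. AQP4, the water channel of astrocytes, averaged 1.58 ± 0.36 TPM on day 10 and 0.76 ± 0.31 TPM on day 4. SLC1A3 and FABP7 are shared by radial glia.

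Oligodendrocyte genes gave 2 rises and 4 falls among 7, with summed levels of 104 to 122 TPM on day 10 and 134 to 163 TPM on day 4. OLIG1 and OLIG2, which also mark progenitors, fell by 1.48 and 1.52 log2 units, and MAG was at 0 in both groups. No microglia or blood gene passed the filter, AIF1 and TYROBP were at 0 in every library of both days, and that list summed to at most 0.63 TPM on day 10 and 1.2 TPM on day 4. Endothelial genes summed to at most 8.85 TPM on day 10 and 14.4 TPM on day 4, most of it CLDN5, and CDH5 reached at most 0.4 TPM on day 10 and 1.03 TPM on day 4.

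Mesenchymal and matrix genes were present at 697 to 1026 TPM on day 10 and 739 to 1018 TPM on day 4 in sum, with 3 rises and 7 falls among 11. POSTN rose by 0.70 ± 0.12 and FN1, fibronectin, fell by 0.67 log2 units. Peripheral and crest markers gave 2 rises and 4 falls among 6: TLX3, a factor of sensory and dorsal neurons, fell by 1.30 and POU4F1, a factor of sensory neurons, by 1.14. Of 4 pluripotency genes tested DPPA4 fell by 1.18 and the other 3 did not pass the test, with a median difference of 0.12 over the list. That list summed to 14.7 to 23.8 TPM on day 10 and 28.7 to 41.8 TPM on day 4. EPCAM, an epithelial adhesion protein, had 3.7, 6.28 and 7.6 TPM on day 10, against 0.19, 0.455 and 1.11 TPM on day 4, while CDH1 averaged 0.873 ± 0.36 TPM on day 10 and 0.636 ± 0.28 TPM on day 4 and TTR 0.126 ± 0.24 TPM on day 10 and 0.0469 ± 0.13 TPM on day 4. The part of these other cells in the changes above was not tested.

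Lists of metabolism and stress were mixed. Sterol synthesis and uptake fell in 12 of 14 genes by a median difference of -0.39 log2 units, with INSIG1, which holds back the sterol sensor, lower by 0.63. Of 12 hypoxia and glycolysis genes 7 rose and 3 fell: NDRG1 rose by 2.17 ± 0.054, and HK2, a hexokinase, fell by 1.65. Targets of p53 fell in 10 of 15 genes and PHLDA3 rose by 0.95 ± 0.1. Of the amino acid response 7 of 11 genes rose, CHAC1, which degrades glutathione, by 1.69 ± 0.087 and ATF3 by 1.17 ± 0.1, while PHGDH, the first enzyme of serine synthesis, fell by 0.93 log2 units. Genes often used as references were not constant: ACTB rose by 0.36 ± 0.023 and RPLP0 fell by 0.46, with 7 of 10 lower and 2 higher. Of all genes tested 78.2% were called, so this count does not set the reference genes apart. Changes of at least 1 log2 unit were seen in 0 of them. With each library centred on its median 5 were lower and 2 higher.

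Most genes changed by another amount in the intervals before and after. A fit on days 1, 4, 10 and 21 tested, gene by gene, the difference between this interval and the one before or after it, and 65.8% and 74.8% of 14779 genes differed. The intervals last unequal numbers of days and share libraries, so their values are set side by side. PCP4, SST, FGF3, NEUROG1 and TOP2A were among the largest changes from day 4 to day 10 in the same libraries. That choice favours a larger change in this interval than in its neighbours, so for these genes the tests only describe the values. PCP4 changed by 1.79 from day 1 to 4, by 6.83 from day 4 to 10 and by 0.65 log2 units from day 10 to 21, and this interval exceeded the one before by 5.04 (adjusted p = 1.98e-23, limma) and the one after by 6.18 (adjusted p = 2.94e-26). GAD2 changed by 3.00, 2.29 and -0.06 log2 units, with the change before day 4 the larger of the first 2 (adjusted p of the difference = 1.12e-07, limma). RBFOX1 changed by 2.31, 2.35 and -0.40, with no difference shown between the first and the second interval (adjusted p = 0.715, limma).

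SST changed by 0.20, 4.61 and 2.26 and FGF3 by 0.04, 4.84 and 2.40 log2 units in the same order, with means of 136 and 155 TPM on day 21. GFAP changed by 1.19, 3.50 and 4.90, more after day 10 than between day 4 and day 10 (adjusted p of the difference = 6.89e-14, limma). TAC3 changed by 2.72, -0.62 and -5.39 log2 units, upward before day 4 and downward after it. NEUROG1 changed by -0.20, -2.90 and -0.20, and the middle change was the larger against both neighbours (adjusted p = 3.97e-25 and 1.54e-24, limma). TOP2A changed by -0.49, -2.15 and 0.65 log2 units, with the middle change lower than both neighbours (adjusted p = 2.21e-23 and 1.59e-31, limma).

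**Figure D4:**
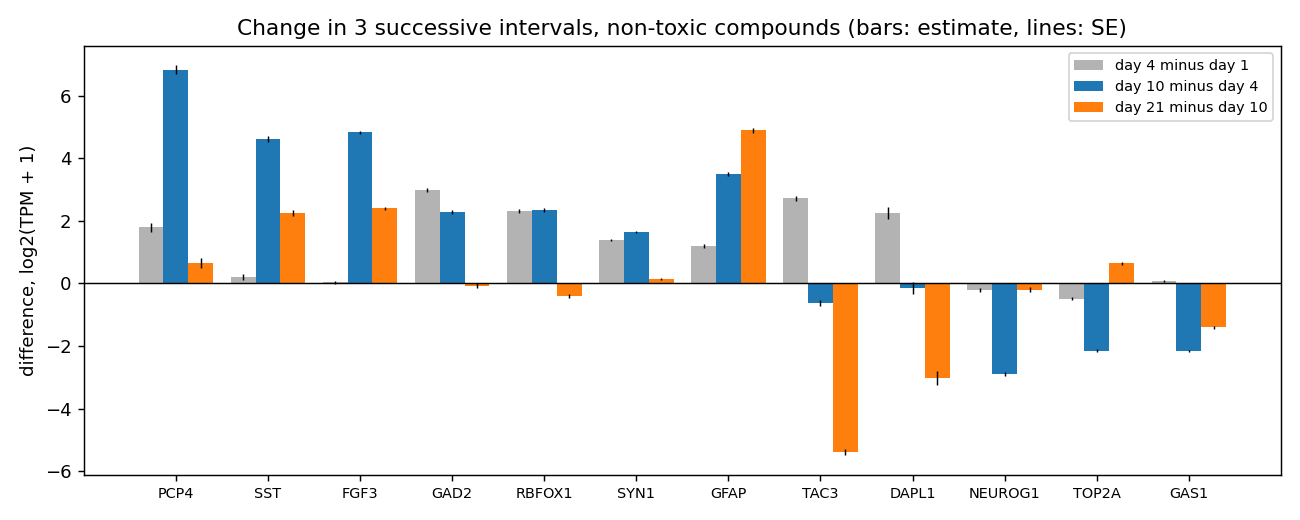
Difference in log2(TPM + 1) (vertical axis) of 12 genes (horizontal axis) between day 4 and day 1, day 10 and day 4, and day 21 and day 10, from the fit on those 4 days, with lines for the SE. By size the last bar is the largest for GFAP, TAC3 and DAPL1, the first for GAD2, and the middle one for the other 8 genes. PCP4, SST, FGF3, NEUROG1, TOP2A and GAS1 were among the largest changes from day 4 to day 10, a choice that favours the middle bar.

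The 15 compounds gave nearly the same change. Of the 797 genes that rose by at least 1 log2 unit, between 793 and 797 were higher on day 10 under any one compound, and of the 674 that fell as much between 669 and 674 were lower. These genes were chosen on the same libraries, so the counts only describe the spread. The median change of the risers was 1.34 to 1.48 and that of the fallers -1.46 to -1.22 log2 units across compounds. The fallers changed by -1.46 to -1.38 under acetaminophen, fructose, glyphosate, ibuprofen, PVP and sorbitol, and by -1.30 to -1.22 under the others. On day 10 the length slopes were -0.118 to -0.0207 in the libraries of the first set and 0.0309 to 0.0721 in the others. The part of the length trend in this spread was not tested. The change of PCP4 was 6.20 at the lowest, under DMSO, and 7.96 at the highest, under saccharin. PCP4 was at 7.89 TPM under DMSO and 1.65 TPM under saccharin on day 4, and at 652 and 660 TPM on day 10. Those compounds thus differed in the low day 4 value and little on day 10. The change of GAD2 ran from 1.97 under sorbitol to 2.59 under saccharin.

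The same interval was set against that of compounds the submitters class as toxic, where FGF3, FGF19 and SST rose less and NEUROG1 and TOP2A fell less. Of the toxic compounds 21 had a library on both days, and 1 change per compound was compared with the 15 changes of the non-toxic ones. In µM they were diazinon and U0126 at 10, Bis-I at 4, dexamethasone at 100, hydroxyurea at 250, monosodium glutamate at 150, permethrin and PD166866 at 2.5, (trans) retinoic acid at 1.7 and lead acetate at 30. In µg/ml they were benzene at 50, propylthiouracil at 25, amiodarone at 1, carbamazepine at 10 and the compound labelled Accutane or Isotretinoin at 0.5. The others were K252a at 30 nM, bioallethrin at 10 nM, dioxin at 3 nM, thalidomide at 100 ng/ml, 2-Imidazolidinethione at 0.4 mM and L-phenylalanine at 1 mM. Of 14607 genes 2106 had a higher change (14.4%) and 2170 a lower one (14.9%) under toxic compounds. PCP4 changed by 2.83, 6.83 and 7.98 log2 units at the lowest, median and highest toxic compound and by 6.20, 6.91 and 7.96 at the non-toxic ones, a difference that did not pass (-0.45 ± 0.36, adjusted p = 0.375, limma). Its lowest changes were under isotretinoin (2.83), hydroxyurea (3.06) and retinoic acid (3.41). GAD2 and SYN1 also did not differ past the threshold, at -0.27 ± 0.12 and 0.01 ± 0.061.

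FGF3 changed by -0.65, 3.96 and 5.20 under toxic compounds and by 4.36, 4.83 and 5.12 under non-toxic ones (-1.56 ± 0.38, adjusted p = 0.00151, limma). FGF19 changed by -1.73, 3.36 and 4.23 under toxic compounds, against 3.29, 3.99 and 4.47 under non-toxic ones (-1.19 ± 0.41, adjusted p = 0.024, limma). Both were lowest under retinoic acid. SST was lowest under Bis-I (1.33) and K252a (2.12), below the lowest non-toxic compound (3.80). Hydroxyurea (2.32), lead acetate (2.41), dexamethasone (2.51), propylthiouracil (3.47) and retinoic acid (3.63) also lay below it. The mean change of SST under toxic compounds was lower by 0.75 ± 0.28 log2 units (adjusted p = 0.0373, limma). The fall of NEUROG1 was smaller by 0.53 ± 0.17 and that of TOP2A by 0.38 ± 0.13 log2 units (adjusted p = 0.0146 and 0.0194, limma). NEUROG1 fell least under hydroxyurea (-0.62) and retinoic acid (-1.29), and TOP2A under hydroxyurea (-0.55) and K252a (-0.93). Each toxic compound had 1 library a day, so a single compound has no replicate check. These genes were named for their changes in the same non-toxic libraries, a choice that favours smaller changes under the toxic compounds.

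**Figure D5:**
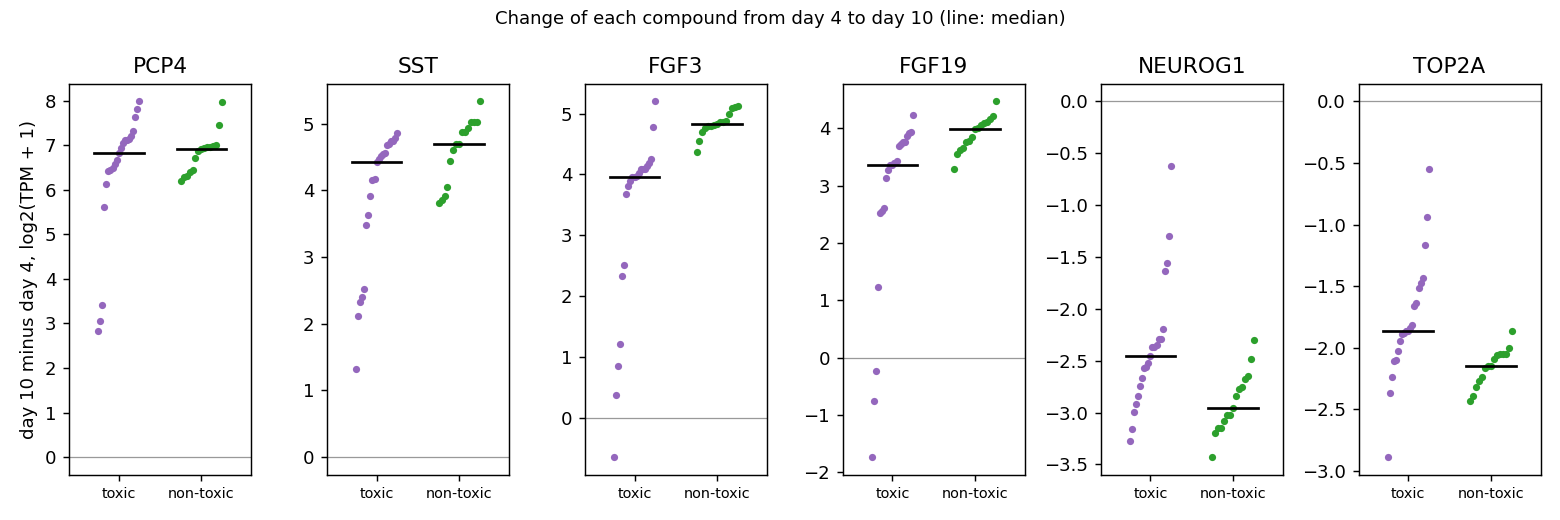
Day 10 minus day 4 change in log2(TPM + 1) (vertical axes) of 6 genes under each of 21 toxic and 15 non-toxic compounds, 1 dot a compound, sorted within the class, with a line for the median. The toxic medians of FGF3, FGF19 and SST lie below the non-toxic ones, and those of NEUROG1 and TOP2A above.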

How the data were processed

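Gene levels were deposited by the authors as TPM from RSEM 1.2.1 with Bowtie 0.12.8, CASAVA 1.8.2 and the genome build hg19, per the submitters' processing notes. TPM keeps no depth, so depth per library is unknown and no count model was used. The members and gene lists were chosen with earlier results of these data known. Genes that reached 1 TPM in 5 or more of the 55 libraries were tested on log2(TPM + 1) with limma 3.58.1 (R 4.3.3, trend, day with compound as a block), with Benjamini-Hochberg adjustment over all genes tested and a threshold of 0.05. The block comes from the compound labels, and deviations of the same compound on 2 days correlated by -0.164 to 0.201. The text names the 15 largest rises and falls among called genes that averaged 5 TPM or more on either day, up to 4 members of a list with the largest differences and those going the other way, 5 genes each that peaked or dipped inside the window, and 5 each with the largest and smallest share of a difference of at least 2 log2 units reached by day 6. A few others (the genes with printed promoters, NOTCH1, NOTCH3, HES5, RB1, CDH5 and markers of other cells) were chosen for their role after their values were seen. Naming genes by the size of a difference in the same libraries favours separated days and small p-values, so for them these only describe the values. Transcript lengths came from GENCODE 29 and promoters from RefSeq. Results of a few genes that the naming rule selects are not reported here.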

Additional observations from a re-analysis of the deposited data

Results flagged for a closer look

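Of 47 genes looked at for a library far from the rest of its day, 3 had one on day 8, the day with 9 libraries, and chance gives about 1 in 20. VGF had 70.0 TPM under amoxicillin, where the other 8 libraries had 86.7 to 99.0 TPM. That library was also the lowest of day 8 for GRIN1 (11.9 TPM), SYN1 (48.7 TPM) and SLC12A5 (9.1 TPM), while ACTL6B and MCM2 were inside the range of the others. It had the fewest genes at 1 TPM of the 55 libraries (13291) and the lowest length slope of day 8 (-0.0653), so its low value is not particular to VGF. ASPM had 8.56 TPM under naproxen sodium, against 10.1 to 11.5 TPM in the others. PNMA6A, which shares reads with near-identical copies, had 1.99 TPM under PEG 3350 and was at 0 in the others, where any single value above 0 is flagged.

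For 24 of the 47 genes the change from day 4 to day 10 under the 21 toxic compounds differed from that under the 15 non-toxic ones, by limma at an adjusted p under 0.05 over all genes tested (29.3% of all genes differed). Among genes that rose under the non-toxic compounds, the toxic minus non-toxic change was -1.56 log2 units for FGF3, -1.19 for FGF19, -1.08 for FOS, -0.97 for NXPH3, -0.83 for LRRC3B and -0.79 for SLA. It was -0.78 for GRM7, -0.78 for VGF, -0.75 for SST, -0.69 for GSX1, -0.59 for CALY and -0.58 for TH. Among genes that fell, it was 1.02 for MST4, 0.76 for HMGA2, 0.68 for PCDH8, 0.62 for PROM1, 0.54 for FAM19A4 and 0.53 for NEUROG1. It was 0.49 for COL2A1, 0.43 for ASPM, 0.41 for PCDH18, 0.40 for CASZ1, 0.38 for TOP2A and 0.36 for GAS1. The 47 genes were chosen for their changes in the same non-toxic libraries, which favours smaller changes under the toxic compounds, so nothing is read from the number that differed or from their direction. The part of single compounds was not tested.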

How the results depend on the processing

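The counts of day 10 against day 4 stayed within 1.5 times their value under 12 alternatives, except that with a mean of at least 10 TPM, which tests fewer genes, 476 and not 797 genes were higher by at least 1 log2 unit. That setting left 5 genes highest and 3 lowest on day 6 or 8, against 15 and 17, and a pseudocount of 0.1 TPM gave 24 and 68. Keeping ibuprofen on day 8 gave 2395 and not 3619 genes higher and 2464 and not 4167 lower on day 6 than on day 4, 1980 and not 3179 higher on day 8 than on day 6, 627 and not 1633 lower on day 10 than on day 8, and 55 genes lowest on day 6 or 8. With no replicate block 5288 genes were higher and 5981 lower on day 10, against 5281 and 5972, and the random block correlation was -0.00126. Of the 200 named genes' results under these settings 2323 kept direction and call, 18 lost the call and 3 gained it. C14orf178, not called, changed sign to -0.14 with the length trend removed, against 0.05, and the cause was not tested. MSX1 lost its call under 6 settings (adjusted p 0.0532 without the block, limma). Of the calls on day 10 against day 4, 46.9% were higher, 50.6% with each library centred on its median and 49.3% with TMM factors. Depth is unknown, so the precision of genes of a few TPM cannot be given beyond their spread between libraries.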
